A study of Mus musculus with 7 samples.

Results

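At embryonic day 9.5 (E9.5), cells sorted as carrying the integrin Itga8 and lacking the receptor Pdgfra were compared with the remaining GFP-positive cells of the same region, 1 array against 1 array, out of 7 arrays in the study. All embryos were C57BL6J and carried an Osr1-GFP knock-in, in which green fluorescent protein (GFP) marks cells with activity of the Osr1 locus, so the knock-in is shared by both sides and there is no wild-type sample among them. Both populations came from the caudal portion of the embryo at E9.5 and were separated by flow cytometry. The gated cells were GFP-positive, Itga8-positive and Pdgfra-negative. The other cells were GFP-positive and fell outside that gate, whichever of the surface proteins put them there. Another array of E9.5 held GFP-negative cells of the same region and serves here as a reference level. The remaining 4 arrays, 2 of E8.5 and 2 of E11.5, are used only where named. The labels name no treatment, and 10 ng of RNA was amplified for each array. The sources used here do not say how many embryos an array holds or whether they were pooled. With 1 array per population there were no replicates, no test could be run, and no difference below carries a replicate error.

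Kidneys arise from the intermediate mesoderm, a strip of tissue between the somites and the lateral plate. Its posterior part gives nephron progenitors, held in an undifferentiated state by transcription factors such as Six2, Sall1 and Osr1, and these cells secrete Gdnf to attract the ureteric bud from the nephric duct. Osr1 is also active in lateral plate mesoderm, from which limb bud, body wall and gut mesenchyme derive, so GFP alone does not separate the kidney lineage from its neighbours.

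Levels are given as log2 signal relative to the 75th percentile of the array, so that 0 is the brightness of that percentile. A difference is the level in gated cells minus that in other GFP-positive cells, also in log2 units. Where one side was not well above background by the scanner's own call, it was set to the lowest well-above level of its array, or to its own signal where that was higher, and the difference is given as "at least". Of 59305 spots that were not controls, 72.4% were well above background in gated cells, 84.1% in other GFP-positive cells and 73.8% in GFP-negative cells. Over 399 probes with 10 spots on each array, the median SD among spots of a probe was 0.13 (0.18 once 2 arrays are subtracted), and this is the noise of spots only. The gated and GFP-negative cells of E9.5 were hybridised on one slide and the other GFP-positive cells on another, so for every difference here slide and population cannot be told apart. In these bulk samples, fewer cells of a type and less RNA per cell cannot be told apart either.

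The sort genes followed the gate. Osr1, the gene that carries the GFP, stood at 1.03 in gated cells, -0.08 in other GFP-positive cells and was not well above background in GFP-negative cells, where its signal was -4.38. Itga8, which pairs with the integrin subunit Itgb1, stood at 2.15, 0.20 and -1.31 in that order. Pdgfra, a receptor for platelet-derived growth factors found on mesenchyme, stood at -0.52, 3.44 and 1.99. Pdgfra transcript was thus well above background in the cells sorted against its protein, 15.5-fold below the other cells. The probes lie at chr12:9587390-9587449 for Osr1, chr2:12028462-12028521 for Itga8 and chr5:75593888-75593947 for Pdgfra in the mm9 coordinates of the array files. Since the cells were sorted on these genes, their differences are a check of the labels and not a result.

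Most genes were close between the arrays. Of 23599 genes measured on at least 1 of them, 20176 lay within 2-fold, and the median difference was -0.15. In the gate 198 genes were at least 4-fold higher (0.839%) and 280 at least 4-fold lower (1.19%), of which 57 and 140 are bounds. At 2-fold, the limit used for gene lists below, 1212 were higher (5.14%) and 2211 lower (9.37%). Among the 19732 genes well above background on both arrays, 141 passed 4-fold upward and 140 downward, and levels correlated at Pearson r = 0.974, a description across genes, which are not independent replicates. Quantile normalization gave 457 higher and 320 lower, so the larger side depends on the scaling, and the median over all genes became -0.02. Normexp background correction, which adds an offset to all signals, left 1.46% of genes higher and 1.36% lower at 2-fold, and fewer members of most lists passed 2-fold under it, as given below for several of them. Genes at least 4-fold apart were mostly dim: 105 of the 198 higher and 180 of the 280 lower had a mean level below -2. Dim genes were also common among all 23599 measured, of which 2659 lay below -4 and 7351 from -4 to -2.

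**Figure D1:**
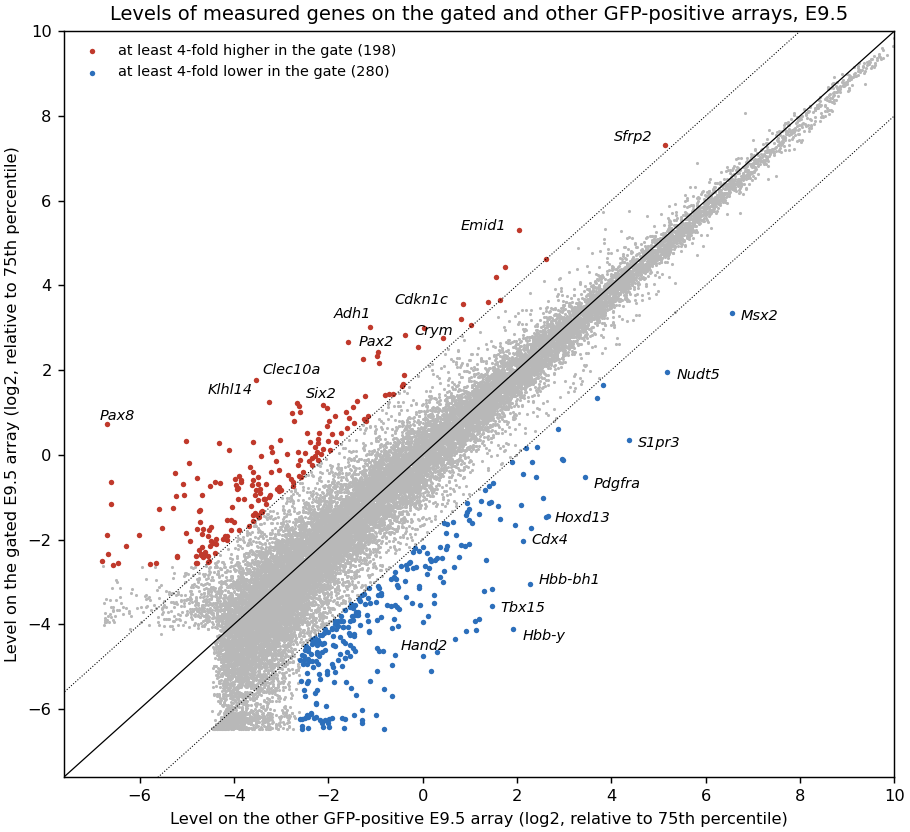
Level of each measured gene on the other GFP-positive E9.5 array (horizontal axis) and the gated E9.5 array (vertical axis), both as log2 signal relative to the 75th percentile of the array. Red points are the 198 genes at least 4-fold higher in the gate and blue points the 280 lower, the solid line marks equal levels and the dotted lines 4-fold differences. Grey points outside the dotted lines are genes with a bound under 4-fold, because one side was too dim to measure.

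The top 40 genes of each direction, chosen for their values, held kidney genes on the higher side and limb, axial, endoderm and blood genes on the lower side. The highest, Pax8, a paired-box factor of the kidney lineage, stood at 0.72 in gated cells against a signal of -6.70 in other cells that was not well above background, a difference of at least 5.35. Clec10a, a lectin receptor best known from macrophages, stood at 1.78 against -3.54. Matn1, a matrix protein of cartilage, stood at 0.32 in gated cells and did not pass background in other cells, at least 30.8-fold higher in the gate. Others on that side were Klhl14 (4.51), Eva1a (at least 4.43), the surface protein Plet1 (4.23), the ion channel Asic4 (3.87), the protein-citrullinating enzyme Padi2 (3.76) and Emid1 (3.26). Second probes gave 2.61 for Plet1, 3.40 for Asic4, 3.52 for Padi2 and 3.63 for Emid1. For Gas7 (3.61) and Ntsr1 (3.53) a second probe gave -0.54 and -0.12, so those genes rest on 1 probe that the other does not share.

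On the lower side, Hbb-y, an embryonic globin, had the largest difference, at least 65.8-fold. Pcolce, which enhances the processing of procollagens, stood at -1.44 in gated and 2.67 in other cells. S1pr3, a receptor for sphingosine 1-phosphate, stood at 0.35 and 4.38. Pdlim3, a protein of muscle actin filaments, stood at -3.80 and 0.12. Among genes with a second measured probe, 26 of 39 higher genes kept their sign in it and 15 were at least 2-fold apart, against 40 and 27 of 46 lower genes. Of the 40 highest genes, 12 were predicted or without a name of known function, and of the 40 lowest, 1. Such genes made up 5863 of the 23599 measured. At 4-fold 0.785% of them were higher and 0.853% lower, so the contrast of 12 and 1 is confined to the top 40. On the GFP-negative array 29 of the 40 highest and 39 of the 40 lowest were above background, as were 20502 of all 27113 genes with a probe.

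The same gate was sorted at E11.5 from metanephric mesenchyme, and those arrays share no sample with the E9.5 ones. Of the 40 highest genes, 35 were measured there, 14 at least 4-fold higher in the gate and 2 at least 4-fold lower, where 2.2% and 3.24% of all 21700 measured genes passed these limits. Of the 40 lowest, 27 were measured at E11.5, 2 higher and 10 lower. Matn1 (at least 4.84), Klhl14 (at least 5.72), Plet1 (4.29) and Padi2 (7.21) were among those higher at both stages, and S1pr3 (-8.80) and Pcolce (-4.69) among those lower at both. Adh1 and Asic4, at 4.15 and 3.87 at E9.5, stood at 0.93 and 1.16 at E11.5. Eva1a, higher at E9.5, stood at -0.88 at E11.5. The difference between the stages was not tested.

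Promoters of 4 genes far apart between the arrays are shown to let their letters be read beside the values, one for a kidney factor and 3 that hold a searched motif. Each is the 250 bases before the first RefSeq start of the gene in GRCm38.p6, read along the strand of the gene, and the genes were picked after their values were seen. Six2 (chr17:85688255-85688504, minus strand) and Eva1a (chr6:82041378-82041627, plus strand) were higher in the gate. Col3a1, a fibrillar collagen, (chr1:45311288-45311537, plus strand) and Pcolce (chr5:137611405-137611654, minus strand) were lower. Capitals mark letters of searched motifs, which are TCANGTTTC, the MEF3 site, CATATG, an E-box bound by Twist proteins, AGGTGTGA, a T-box element, and TATAAA, the TATA box.
Six2: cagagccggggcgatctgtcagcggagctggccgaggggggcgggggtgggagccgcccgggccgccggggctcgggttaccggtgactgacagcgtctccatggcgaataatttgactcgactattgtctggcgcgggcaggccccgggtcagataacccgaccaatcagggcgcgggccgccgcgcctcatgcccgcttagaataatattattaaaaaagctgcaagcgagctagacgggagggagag
Eva1a: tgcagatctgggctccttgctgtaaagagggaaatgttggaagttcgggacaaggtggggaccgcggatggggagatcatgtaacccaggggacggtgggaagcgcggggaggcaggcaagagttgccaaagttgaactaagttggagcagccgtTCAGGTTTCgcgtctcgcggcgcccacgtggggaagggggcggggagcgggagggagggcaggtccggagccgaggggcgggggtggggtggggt
Col3a1: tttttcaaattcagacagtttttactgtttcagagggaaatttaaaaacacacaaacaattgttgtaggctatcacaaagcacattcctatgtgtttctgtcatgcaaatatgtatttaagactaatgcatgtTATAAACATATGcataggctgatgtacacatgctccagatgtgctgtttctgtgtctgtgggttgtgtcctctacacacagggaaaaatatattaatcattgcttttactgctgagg
Pcolce: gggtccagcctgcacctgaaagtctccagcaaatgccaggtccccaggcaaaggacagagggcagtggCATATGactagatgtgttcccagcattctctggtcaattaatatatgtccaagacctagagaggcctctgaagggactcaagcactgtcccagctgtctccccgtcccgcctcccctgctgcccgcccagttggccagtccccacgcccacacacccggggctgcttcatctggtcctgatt
The Six2 and Eva1a windows hold 64.8% and 65.2% G and C, with 26 and 18 CpG, whereas that of Col3a1 holds 35.2% with 0 CpG and that of Pcolce 58.8% with 5. TCANGTTTC stands in the Eva1a window from base 156, TATAAA and CATATG stand next to each other in that of Col3a1 from bases 134 and 140, and CATATG stands in that of Pcolce from base 69. In the Six2 window none of the searched letters was found.

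Over whole sets, the median share of G and C was 61.6% in the 116 matched promoters of genes at least 4-fold higher, 56.4% in the 175 of those lower, 56.8% in the 15239 of all measured genes and 52% in all 27025 promoters. On either strand, TCANGTTTC occurred in 2 of the 116 and 0 of the 175, against 0.958% of measured genes and 1.05% of all promoters. CATATG occurred in 3 and 8, against 2.32% and 3.47%. AGGTGTGA occurred in 1 and 2, against 0.952% and 1.14%. TATAAA occurred in 11 and 28, or 9.48% and 16%, against 10.2% of measured genes and 13% of all promoters. A match is a run of letters, and binding was not measured.

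Transcription factors of the nephrogenic mesoderm were higher in the gate more often than lower. Of 32 listed factors, all measured, 13 passed 2-fold upward (40.6%) and 6 downward (18.8%), where 5.14% and 9.37% of all genes did, and the median was 0.50 against -0.15 over all genes. Osr1 belongs to this list and was used for the sort. At E11.5, 10 of 30 measured factors were higher by 2-fold or more and 7 lower, where 10.9% and 9.42% of all genes were. Pax2, the partner of Pax8 in early kidney formation, stood at 2.32 in gated cells, -0.97 in other cells and -0.75 in GFP-negative cells. Its other probes gave 2.12 and 1.32 where the reported one gave 3.30. Six2 stood at 1.16, -2.63 and -2.75, a difference of 3.79, and 4.47 by its second probe. Both genes were thus high in the gate alone among the arrays of E9.5, the levels on the other arrays lying close together.

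Wt1, a zinc finger factor of nephron progenitors, coelomic lining and podocytes, stood at 5.73, 3.83 and 0.13. Unlike Pax2, Wt1 was far above GFP-negative cells on both GFP-positive arrays. Sall1 stood at 3.25, 1.59 and 2.54 (1.66), Six4 at 0.40, -0.98 and -0.26 (1.38) and Foxc2, a forkhead factor shared with the somites, at 4.10, 2.58 and 3.35 (1.53). For these genes the GFP-negative array lay between the 2 GFP-positive arrays. Osr2 and Emx2 differed by 1.17 and 1.13 and were not well above background in GFP-negative cells.

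Among well-known kidney factors, Lhx1 and Eya1 were close by the probes taken. Lhx1, needed for the nephric duct and tubule, stood at 0.71 and 0.26, though a second probe gave a difference of 1.81. Eya1, a transcriptional co-activator at the top of the kidney programme, stood at 8.80 and 9.01, and between 8.65 and 9.01 on all 7 arrays, GFP-negative cells included. That signal, above Actb at 6.45 in gated cells, followed neither population nor stage. Whether it follows Eya1 transcript was not tested, so it says little about Eya1 in these cells. The listed factors lower by 2-fold or more were Hoxd11 (-3.27), Irx3 (-2.52), Sall4 (-1.86), Mecom (-1.39, at least 0.65 lower by a second probe), Dach2 (at least 1.33 lower) and Cited1 (-1.28). Probes of Sall4 ran from -1.86 to 0.61. Cited1, a co-regulator of uncommitted nephron progenitors, stood at 3.18 in the gate, 4.45 in other cells and 4.62 in GFP-negative cells, and was higher in the gate at E11.5, by 5.10.

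**Figure D2:**
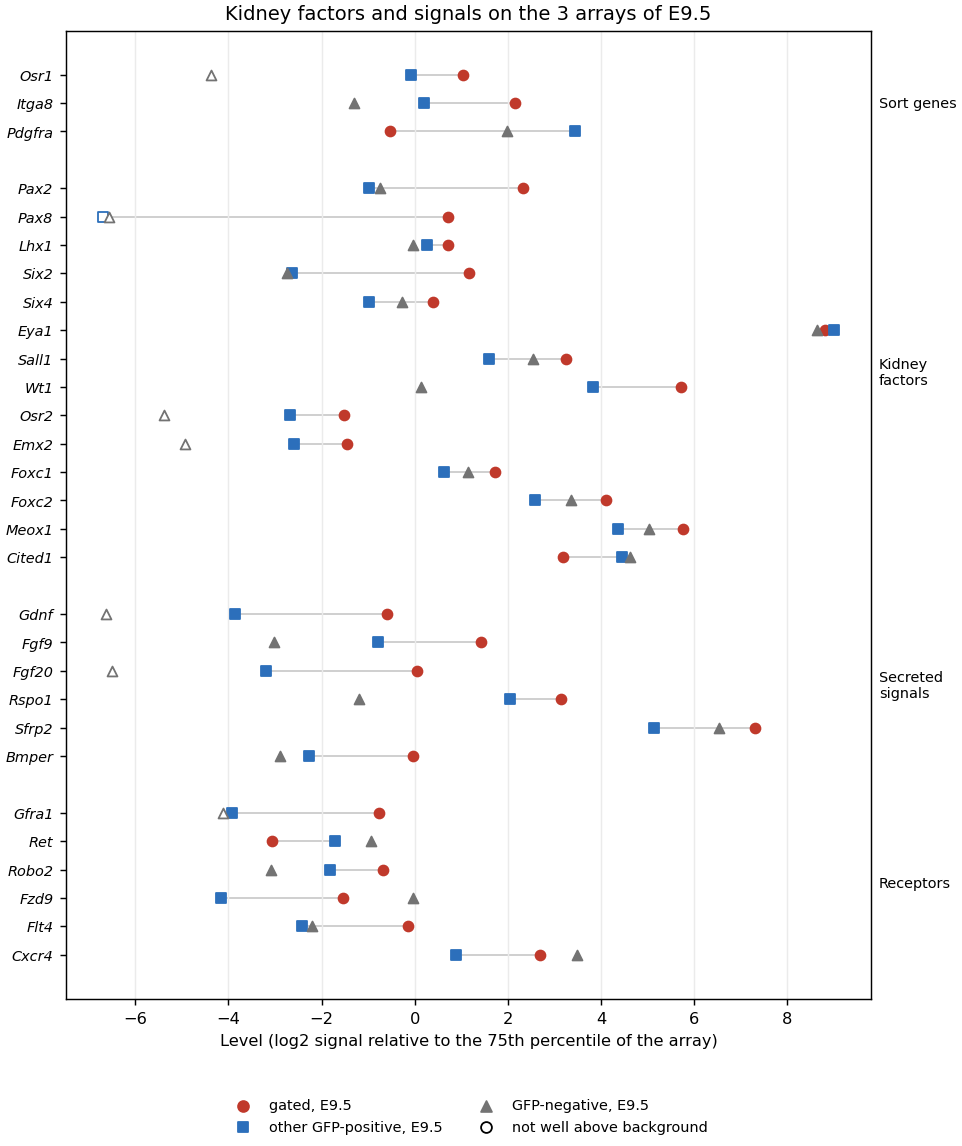
Levels of the 3 sort genes, kidney transcription factors, secreted signals and receptors on the 3 arrays of E9.5, 1 value per array with no replicate. The horizontal axis is log2 signal relative to the 75th percentile of the array, and open symbols were not well above background. Pax2, Six2 and Gdnf stood at 2.32, 1.16 and -0.59 in gated cells, above both other arrays. The Eya1 probe read near 9 on all 3, a flat signal not tested as a measure of Eya1 transcript.

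Genes of the nephric duct, the epithelial tube next to the nephrogenic cord, were on both sides. Of 18 listed, 2 were at least 2-fold higher and 5 lower, with a median of -0.34, and under normexp 2 were higher and 2 lower, with a median of -0.13. Ret, the Gdnf receptor of the duct and bud, stood at -3.06 in gated, -1.71 in other and -0.94 in GFP-negative cells. Cdh1, the epithelial cadherin, stood at -2.86 in other cells and did not pass background in gated cells. The keratins Krt8 and Krt18 were lower by 1.41 and 1.56 on the log2 scale. Gata3, a duct factor, differed by -0.64, and Epcam, an epithelial surface protein, by -0.06, with levels of -0.81 and -0.75. Wfdc2 (1.93) and Gfra1 (3.15) were the members higher in the gate. Podocyte and tubule genes of the mature nephron had 4 of 18 higher and 3 lower (2 and 1 under normexp), with a median of -0.19, and the higher ones included Jag1, Ptpro and Lrp2. Lrp2, an endocytic receptor, stood at -0.36 in the gate and -3.04 in other cells, close to -0.24 in GFP-negative cells.

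Signals of the kidney field differed gene by gene. Gdnf, the ligand, stood at -0.59 in gated and -3.85 in other cells and was not well above background in GFP-negative cells. Gfra1, its co-receptor, stood at -0.77 and -3.92 and was not well above background there either. Gfra3, the co-receptor for artemin, went the other way, at -3.31 and 0.24. Robo2 and its ligand Slit2, which limit the field of Gdnf, were higher by 1.14 and 1.11, though other probes of Robo2 reached down to -0.03. Npnt, the matrix ligand of the Itga8 integrin, stood at -0.97 in gated and 0.22 in other cells (-0.80 by a second probe), the reverse of Itga8 itself, and at E11.5 it was at least 4.66 higher in the gate. In the whole Gdnf and Ret list 4 of 18 were higher and 4 lower, with a median of 0.37, and under normexp 2 were higher and 2 lower.

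Among 25 measured fibroblast growth factors and receptors, 2 were at least 2-fold higher and 3 lower. Fgf9, which keeps nephron progenitors proliferating, stood at 1.42 in gated cells, -0.79 in other cells and -3.02 in GFP-negative cells. Fgf20, its close relative, stood at 0.06 and -3.19 (3.25, and 2.49 by a second probe) and was not well above background in GFP-negative cells. Fgf10, which drives limb and lung outgrowth, stood at 0.56 and 1.44, within 2-fold. Fgf4, Fgf5 and Fgf16 were the lower ones. The receptors Fgfr1, Fgfr2 and Fgfr3 lay within 2-fold, Fgfr1 at 6.73 and 6.52, whereas the probes of Fgfr4 disagreed, with 0.11 and -1.82. Of 15 targets of the pathway 1, the phosphatase Dusp4 (1.49), was at least 2-fold higher and 0 lower, with a median of 0.43. Etv4 and Etv5, the targets most used as a readout in kidney, differed by 0.97 (Etv4 past 2-fold by a second probe) and 0.58.

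Wnt genes differed member by member, with receptors and inhibitors on both sides. Of 40 measured ligands and receptors, 7 were at least 2-fold higher and 8 lower (under normexp 5 and 3), with a median of -0.00. Fzd9, a Frizzled receptor, stood at -1.53 in gated and -4.16 in other cells, but at -0.04 in GFP-negative cells. Rspo1, an enhancer of Wnt signalling, stood at 3.15, 2.05 and -1.19. Its relatives went the other way: Rspo2, known from the limb bud, was at least 12.3-fold lower in the gate and Rspo3 lower by 1.57 on the log2 scale. Wnt4 and Wnt11, ligands of later nephron and bud development, differed by -0.57 and 0.36. Of 14 measured pathway targets 1 was higher and 6 lower, with a median of -0.71, and under normexp 1 was higher and 2 lower, with a median of -0.45. Axin2, the most used of them, stood at 2.61 in other and 2.59 in GFP-negative cells and differed by -1.62 in the gate, though a second probe gave -0.31.

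Of 15 measured Wnt inhibitors, 3 were higher and 5 lower (3 and 1 under normexp). Sfrp2, a secreted inhibitor, stood at 7.31 in gated cells, 5.13 in other cells and 6.54 in GFP-negative cells, the highest mean level of any gene past 4-fold on the higher side. Its probe lies at chr3:83577864-83577923 in mm9. Frzb and Shisa2 were each higher by 1.63. Cer1 was at least 3.69 lower in the gate, and Dkk1, Dkk3, Sfrp1 and Draxin were lower by 1.07 to 1.98. Inhibitors were thus found on both sides, with the relatives Sfrp2 and Sfrp1 opposed.

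The Bmp and Tgf-beta family was close as a whole, with 1 of 36 ligands and receptors at least 2-fold higher and 4 lower, and 0 in either direction under normexp. Bmp4 stood at 4.16 and 4.26 on the GFP-positive arrays and 1.57 on the GFP-negative one, and Bmp7, a survival factor of nephron progenitors, at -1.80 and -1.61. Gdf6 (-2.06) and Bmp5 (-1.42) were lower in the gate. Bmper, a secreted modulator of Bmp signalling, was the 1 inhibitor of 16 higher, at -0.03 in gated and -2.28 in other cells. Msx2, a homeobox target of Bmp signalling in limb and other mesenchyme, stood at 3.35 in gated, 6.55 in other and 5.35 in GFP-negative cells, 9.18-fold lower in the gate and the highest mean level of any gene past 4-fold on the lower side. Msx1 followed with -1.73, and Id4 (2.17) was on the other side.

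In the Notch pathway 6 of 24 measured genes passed 2-fold upward and 1 downward, with a median of -0.04. Heyl, a transcriptional target of the pathway, stood at -0.43 in gated and -0.55 in GFP-negative cells and was not well above background in other GFP-positive cells, a difference of at least 18.3-fold. Hey1 stood at 5.33, 3.86 and 3.95. The receptor Notch1 (1.46, with 0.16 by a second probe), the ligand Jag1 (1.22), the modifier Lfng (1.38) and the feedback gene Nrarp (1.03) were the other higher members. Dll3, a ligand of presomitic mesoderm, was lower, at least 27.8-fold by one probe and by -1.27 by another. For Lfng, Nrarp and Notch1 the GFP-negative array stood above both GFP-positive arrays, with 2.67, 1.81 and 1.40.

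Retinoic acid, made from vitamin A, patterns the trunk, and its genes lay on both sides. Adh1 and Adh7, alcohol dehydrogenases that can oxidise retinol, were higher by 4.15 and 1.78, and Rdh10, the main retinol dehydrogenase of the embryo, stood at 3.60 in gated, 1.39 in other and -0.08 in GFP-negative cells. Adh1 stood at 3.02, -1.13 and -2.78. Aldh1a2, the main enzyme of the last step in the trunk, stood at 3.09 and 3.01, and its relative Aldh1a3 was at least 2.71 lower in the gate on the log2 scale. The receptors Rarb and Rarg were lower, by -1.51 and at least 15.6-fold, as were the binding proteins Crabp1 (-2.34) and Rbp4 (-2.42). Probes of Rarb ran from -1.51 to -0.31. Of the degrading enzymes Cyp26a1 differed by 1.54 and Cyp26b1 by -1.11. In total 5 of 25 were higher and 6 lower.

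The chemokine receptor Cxcr4 stood at 2.70 in gated, 0.88 in other and 3.48 in GFP-negative cells, and its ligand Cxcl12 differed by 0.06. Pdgfa, a ligand for the receptor used in the sort, was higher by 1.22, and Pdgfrb, the receptor not used in it, lower by 1.70 on the log2 scale. Vegfd, named Figf in the files, and Vegfc, ligands of lymphatic and blood vessel growth, were lower by 3.01 and 1.55 while their receptor Flt4 was higher by 2.26. Epha3, a guidance receptor, stood at -3.94 in gated, 1.11 in other and 0.02 in GFP-negative cells, 33-fold lower in the gate. Epha7 was lower by 1.70, with other probes reaching -0.86, and the ligands Efnb1 and Efna1 were higher by 1.68 and 1.70. Sema3a was lower by 2.48 and Sema3c higher by 1.96, though a second probe of Sema3c gave 0.68. Of 39 measured semaphorin, plexin, netrin and Slit genes 6 were higher and 5 lower (2 and 1 under normexp). In the Hedgehog pathway 0 of 16 were higher and 2 lower, these being the ligand Shh (at least 13.9-fold) and the target Gli1 (-1.14, and -0.50 by a second probe), while Ptch1 differed by -0.31.

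Factors of lateral plate, limb and heart were the list with the largest share of lower genes among lists with 10 or more measured members. Of 22 measured, 0 were at least 2-fold higher and 14 lower (63.6%), with a median of -1.93. Hand2, a regulator of limb and heart, stood at 0.68 in other cells, and its signal of -4.36 in gated cells was not above background. Tbx5 and Tbx4, the forelimb and hindlimb T-box factors, stood at 0.30 and 1.97 in other cells, against a signal of -4.64 that was not well above background and a level of -1.66 in the gate. Tbx3 stood at -1.74 and 2.30, Pitx1, a hindlimb factor, at -1.52 and 1.64, and Isl1 at -0.17 and 1.90. In GFP-negative cells Tbx4 and Pitx1 stood at -3.71 and -3.25, below both GFP-positive arrays, whereas Isl1 stood at -0.05, close to the gate. Gata4, a factor of heart and gonad, and Nkx2-5 of the heart lay within 2-fold. Heart muscle genes had 2 of 16 higher and 2 lower, with a median of -0.19.

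Of 31 measured mesenchymal and stromal factors, 13 were lower (41.9%) and 1 higher, with a median of -0.81, and under normexp 8 were lower, with a median of -0.45. At E11.5, 19 of 30 were lower and 2 higher. Tbx15, a T-box factor of body wall and limb mesenchyme, stood at -3.58 in gated, 1.46 in other and -1.64 in GFP-negative cells. Prrx1 and Twist1 stood at -0.13 and -0.10 in the gate against 2.97 and 2.96 in other cells. The Aristaless genes Alx1 and Alx4 were lower by 2.16 and 1.13 on the log2 scale. Foxd2 was the member higher in the gate, at 3.06 and 1.02. Foxd1, the marker of renal stroma, differed by 0.78, with 2.67 and 1.89, and was highest in GFP-negative cells at 3.52. Meis1, Meis2, Nr2f1 and Nr2f2, found widely in mesoderm, lay within 2-fold.

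Of 26 measured connective tissue matrix genes, 11 were at least 2-fold lower and 1 higher, the proteoglycan Dcn (1.15). Under normexp 3 of 26 were lower and 0 higher, and the median went from -0.59 to -0.29. Col3a1, whose promoter is shown above, stood at 1.65 in gated, 3.82 in other and 2.86 in GFP-negative cells. Col1a1 stood at 0.18, 2.43 and 1.42, and Col1a2 at 2.53, 3.86 and 3.60. In basement membrane genes 4 of 26 were higher, among them Col4a1 (1.35), Frem2 (1.39) and Lama4 (1.91), and 3 lower (4 and 0 under normexp). Among integrins Itga8 was the 1 of 19 higher, a sort gene, and Itgb1 and Itgav differed by 0.43 and 0.14. Cdh11, a cadherin of mesenchyme, was lower by 1.06 (0.65 by a second probe), and Cdh4 and Cdh22 were higher by 1.76 and at least 2.77. Cdh2, the main cadherin of the caudal mesoderm, stood at 6.06 and 5.87.

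Somite and tail bud genes were split. Of 18 measured somite genes, 4 passed 2-fold upward and 5 downward. Meox1, a homeobox factor of the early somite that is also on the kidney list, stood at 5.75 in gated, 4.37 in other and 5.03 in GFP-negative cells, and Scx, a tendon factor, at 1.43, -0.63 and -0.44. Pax1, of the sclerotome, stood at 0.01 in other and 3.42 in GFP-negative cells, with gated cells not above background. Tcf15, a factor of somite epithelium, stood at -3.31, -0.89 and 0.83. Of 20 tail bud and presomitic genes 5 were lower and 1, Lfng, higher. Cdx4, a posterior homeobox gene, stood at -2.03, 2.12 and 3.73, and Evx1 at -2.48, 1.35 and 1.26. For Pax1, Tcf15 and Cdx4 the order was the same, lowest in gated and highest in GFP-negative cells.

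Hox genes, which mark position along the body, differed by cluster and by position within it. All 9 measured Hoxb genes lay above 0, with a median of 0.78, and 8 of 9 Hoxd genes lay below 0, with a median of -0.78, counts that held under each of the 6 ways of background correction and scaling that were run. In the Hoxa cluster 8 of 11 lay below 0 (median -0.37) and in Hoxc 5 of 8 above (0.52). Over all genes the median was -0.15, with quartiles of -0.51 and 0.22, so more genes lay below 0 than above. Most of the Hoxb differences were under 2-fold. At that limit 1 Hoxb gene was higher and 0 lower, and 0 Hoxd genes were higher and 4 lower. In Hoxa 0 were higher and 2 lower, and in Hoxc 3 higher and 0 lower, where 5.14% and 9.37% of all genes were. In groups 5 to 8, 1 of 11 genes was at least 2-fold higher and 0 lower, with a median of 0.59. In groups 11 to 13, the most posterior, 0 of 7 were higher and 4 lower, with a median of -1.38. Hoxd13 stood at -1.46 in gated, 2.61 in other and 0.76 in GFP-negative cells. Hoxd11 stood at -1.19, 2.08 and 0.94, and its second probe gave -1.73. Hoxa13 was lower by 1.89 and by 3.96 in a second probe. Hoxa11 and Hoxc11, which with Hoxd11 are needed for the metanephric kidney, were lower by 0.91 and by at least 0.70 on the log2 scale. Hoxc9 stood at 4.32 and 3.11.

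**Figure D3:**
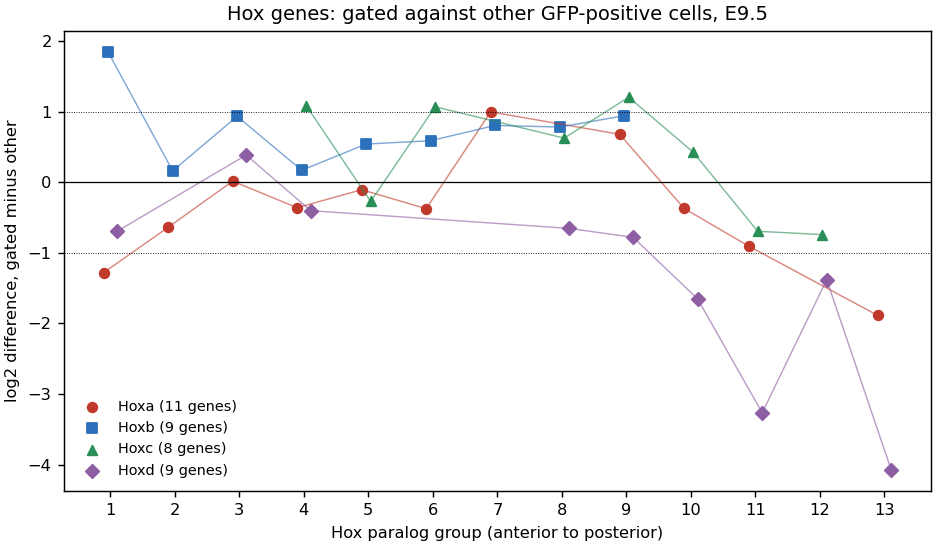
Difference of each of 37 measured Hox genes (log2, gated minus other GFP-positive cells of E9.5), by paralog group from anterior to posterior and coloured by cluster, 1 array a side. All 9 Hoxb genes lie above 0, 1 of them past 2-fold, and Hoxd11 and Hoxd13 lie lowest at -3.27 and -4.07. The dotted lines mark 2-fold.

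Transcripts of other tissues were checked with marker lists, since the other GFP-positive cells are defined only by falling outside the gate. Of 24 endoderm genes, 12 were lower in the gate by 2-fold or more and 2 higher, with a median of -0.98. Over the 16 that were above background in gated cells too, the median was -0.34, with 4 lower, and under normexp 6 of 24 were lower, with a median of -0.40. Foxa2, an endoderm and notochord factor, stood at 0.91 in other and 3.11 in GFP-negative cells, and Foxa1 at -0.66 and -0.31, while neither passed background in gated cells. Summed over the list on the linear scale, in units of the 75th percentile, endoderm genes reached 16.3 in gated, 31.3 in other and 35.8 in GFP-negative cells. Krt18 alone made 3.96, 11.7 and 4.23 of these, and without Krt18 the sums were 12.4, 19.6 and 31.6. Surface ectoderm genes had 10 of 20 lower and 1 higher, with Tfap2c, at -3.21 in gated cells, differing by -4.51. Under normexp 3 of 20 were lower and 2 higher. Sums for that list were 100, 116 and 104, of which a single probe of Trp63 made 64.3, 73.1 and 59.1, while another Trp63 probe differed by -2.88. Without Trp63 the sums were 35.8, 42.7 and 45.0. Markers of endoderm and ectoderm share Cdh1, Krt8, Krt18, Krt19 and Epcam, so their counts are not independent.

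Globins were far lower in the gate, and highest in GFP-negative cells. Hbb-bh1 stood at -3.05 in gated, 2.27 in other and 9.15 in GFP-negative cells. Hba-a1 stood at -1.33, 0.63 and 7.74, and Hba-a2 at -3.16, 1.47 and 7.75. Hbb-y and Hba-x did not pass background in gated cells. Hba-a1 and Hba-a2 are near-identical copies that probes may not separate. The sums of the red cell list were 7.11, 19.1 and 1592, and without Ermap 2.29, 14.3 and 1588. Alas2, which makes haem in red cells, had the opposite order between the GFP-positive arrays, -0.07 in gated and -1.57 in other cells. Of 13 measured macrophage genes Clec10a alone was at least 2-fold higher and Tyrobp alone lower, while Ptprc, Csf1r and Adgre1, which define the lineage, differed by 0.06, 0.11 and 0.20. Sums of the macrophage list were 313, 398 and 288, but 1 probe of Itgam made 291, 381 and 271 of them, and without Itgam they were 21.5, 16.9 and 17.3.

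Endothelial genes, of vessel walls, had in the main setting the highest median of any list apart from the sort genes, 0.63, with 8 of 20 at least 2-fold higher (40%) and 1 lower. All 20 were well above background on both GFP-positive arrays. The defining markers were close: Pecam1 stood at -1.48 and -1.84, Cdh5 at 0.45 and 0.54, Tek at -2.26 and -2.24 and Kdr at 1.67 and 1.38, although a second probe of Kdr gave 1.61. The higher members included Cldn5 (2.32), Flt4 (2.26), Sox17 (2.13, and 1.04 by a second probe), Flt1 (1.92) and Sox18 (1.82). Erg, a factor of the same cells, stood at -1.40 in gated and 1.20 in other cells. Under normexp background correction 4 of 20 were higher. Over the settings the endothelial median fell as low as 0.36, while that of Hox groups 5 to 8 stayed at 0.44 or above. The first rank thus depends on the processing. List sums were 24.9, 17.2 and 11.8 on the linear scale. The early blood factors Tal1, Lmo2 and Lyl1 were higher by 1.49, 1.51 and 1.04, Klf1 and Gfi1b lower, and the other 7 of 12 within 2-fold.

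Other lists ranged from few differences to 38.5% of measured members lower, in the coelomic lining and gonad list. Over all genes 5.14% were higher and 9.37% lower by 2-fold. Of 19 measured neural tube genes 0 were higher and 3 lower, Zic2 at -2.67 and 0.13 among them. Zic1 counted as within 2-fold at 0.07, though a second probe gave -2.94, with gated cells not above background on it. Of 13 neural crest genes 1 was higher and 1, Tfap2b, lower. Tfap2a counted as within 2-fold at -0.20, though a second probe gave 3.36. Coelomic lining and gonad genes had 2 of 13 higher (Wt1 and Emx2) and 5 lower (1 and 2 under normexp), led by the probes taken by Lhx2 at -1.02 and 2.55. For Lhx9 of that list the probe taken differed by -1.49, and its other probes by -1.36 and -5.23. Primordial germ cell genes had 1 of 16 higher, Alpl, and 3 lower (0 and 2 under normexp), with Tfap2c leading, and Pou5f1 within 2-fold. Probes of Nanog ran from -3.46 to -0.39. The part these markers play in the differences above was not tested.

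**Figure D4:**
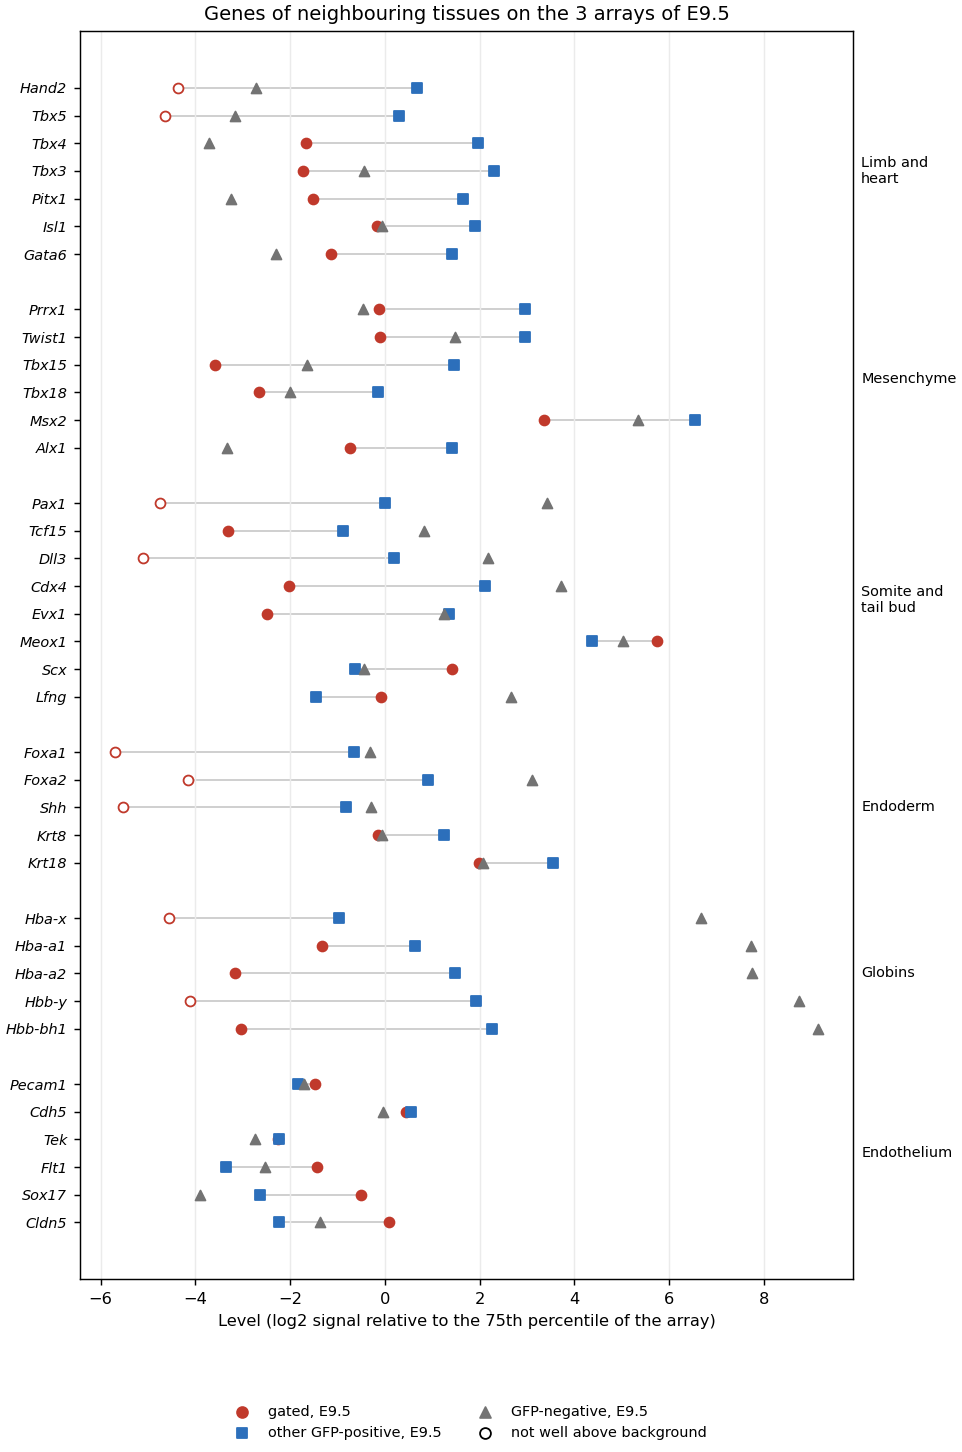
Levels of factors and markers of neighbouring tissues on the 3 arrays of E9.5, 1 value per array with no replicate, as log2 signal relative to the 75th percentile of the array. Open symbols were not well above background. Hand2, Pax1 and Foxa2 were open in gated cells, and globins such as Hbb-bh1 ran from -3.05 in gated to 9.15 in GFP-negative cells. Of the endothelial genes drawn, Pecam1, Cdh5 and Tek differed by at most 0.35 between the GFP-positive arrays. Flt1, Sox17 and Cldn5 were each at least 2-fold higher in gated cells.

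Genes of general cell state were close. Of 27 genes of DNA replication and mitosis 26 lay within 2-fold (median -0.17), with Mki67 at 5.71 and 5.97. All 15 housekeeping genes lay within 2-fold, from -0.53 to 0.22, with Actb at 6.45 and 6.51. Of 21 immediate early genes, which respond to handling of cells, 2 were higher and 1 lower, and Fos, Jun and Egr1 differed by 0.26, 0.52 and -0.60. Among 25 imprinted genes Cdkn1c, a brake on the cell cycle, stood out at 3.56 in gated and 0.85 in both other and GFP-negative cells, 6.54-fold higher, while Igf2 and H19 differed by 0.38 and -0.20. The stress protein Hspb1 was at least 2.94 lower in the gate, with 16 of 19 stress genes within 2-fold. Xist, from the inactive X chromosome, stood at 2.70 and 2.40, and the 4 listed Y-linked genes lay within 2-fold.

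**Figure D5:**
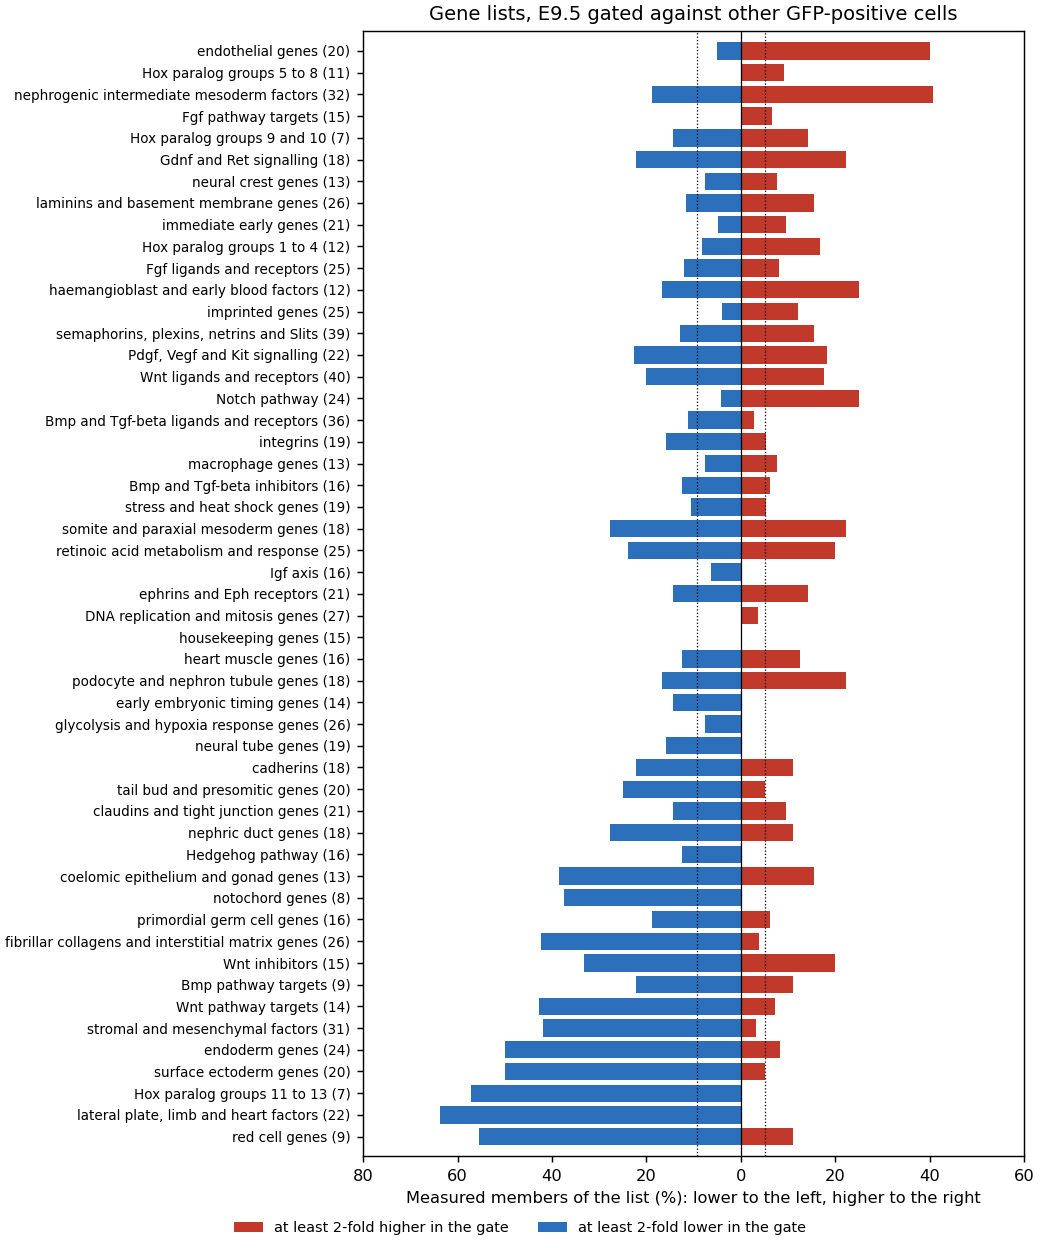
Share of the measured members of each gene list, with their number in brackets, that were at least 2-fold higher (red, to the right) or lower (blue, to the left) in gated than in other GFP-positive cells of E9.5, ordered by median difference. Dotted lines mark the shares over all 23599 measured genes, 5.14% and 9.37%. Nephrogenic factors reached 40.6% on the higher side and limb and heart factors 63.6% on the lower side, and lists share members.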

How the data were processed

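RNA from 7 sorted populations, 1 array each, was amplified, labelled with Cy3 and hybridised to 1-colour Agilent mouse arrays, per the labels' protocols. Per the file headers, the deposited intensity values were extracted with Agilent Feature Extraction 10.7.3.1, and the processed signal is already background-corrected by that software. Here spots of non-control probes were averaged per probe without flagged spots, taken as log2 and centred on the 75th percentile of each array (Python 3.11.15, pandas 2.3.3). A probe was named by RefSeq accession where it matched and otherwise by the file's name. A gene with several probes took the probe with the highest mean over all arrays. For most genes named, other probes are given where they change a call at 2-fold. List counts rest on the probe taken, and other probes of some members would be called otherwise. Among these, Plvap of the endothelial list differed by 0.18 and 2.11, and Pax9 of the somite list by -0.29 and -2.42. Genes called well above background on at least 1 of the compared arrays were kept, and a side not above background was set to the lowest well-above level of its array, or to its own signal if higher. With 1 array per population no test was made. Genes named are the top 40 in each direction among those at least 4-fold apart with a symbol, leaving out any whose other probe lay over 1 log2 unit on the opposite side, and examples from the lists, by size of difference and role. Genes and lists were chosen with earlier results of these data known. The normexp alternative used limma 3.58.1. The procedure was tested on simulated data, with changes placed only in genes brighter than the 75th percentile. All simulated arrays shared the same background calls, so that run did not cover changes in dim genes or differences given as bounds. Promoters came from RefSeq GRCm38.p6. Some genes are not reported here.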

Additional observations from a re-analysis of the deposited data

Results flagged for a closer look

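For Klhl23 and Magee1 the difference between gated and other GFP-positive cells had opposite signs at E9.5 and E11.5, each past 4-fold at its stage. Klhl23 differed by -3.50 at E9.5 and 3.09 at E11.5. Magee1 differed by 3.52 and -2.71. Each stage has 1 array a side and the tissue differs between stages, so the difference was not tested.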

How the results depend on the processing

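The counts of genes at least 4-fold higher and lower, 198 and 280, became 43 and 48 under normexp background correction, 457 and 320 under quantile normalization, 321 and 1073 with neither filter nor bound, and 141 and 140 among genes above background on both arrays. At 2-fold they were 1212 and 2211, and at 8-fold 53 and 72. Genes on the higher side made up 41.4% of calls in the main setting and 58.8% under quantile normalization. The notochord median of -0.38 became 0.06 among genes above background on both arrays. Of 52 list medians, normexp moved 17 by more than spot noise, the filter on both arrays 9 besides that reversal, and quantile normalization 3. Of 212 named genes, normexp moved 129, quantile normalization 59 and the mean of all probes 43. Reversals were counted only for genes at least 2-fold apart in the main setting, with 0 found, and for list medians well beyond spot noise. Smaller values did change sign. Over the settings Ermap ran from -0.99 to 0.07 and the neural crest median from -0.20 to 0.52. The cause of these shifts was not tested. No paired analysis was possible because each population has 1 array. Dim genes limit the comparison, since 105 of 198 higher and 180 of 280 lower genes had a mean level below -2. Many of all measured genes were as dim, as given above.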

Other observations

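Several values belong to no comparison above, and these genes were chosen after their values were seen. Nudt5, a nucleotide hydrolase, stood at 1.95 in gated cells against 5.19 in other and 5.20 in GFP-negative cells, but a second probe differed by -0.22. Crym, a thyroid hormone binding protein, stood at 2.84, -0.37 and -3.90.

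Of 17288 measured probes without a gene name, 165 were at least 4-fold higher (0.954%) and 134 lower (0.775%). Of 873 smell receptor genes, which these cells are not known to use, 3 passed 4-fold in each direction, with a median of -0.42. These shares can be read beside the 0.839% and 1.19% of all genes.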
